A study of Mus musculus with 4 samples.

Results

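Box C/D small nucleolar RNAs (snoRNAs) were examined in 4 mouse RNA-seq libraries. The members were chosen by name, biotype and detection: rows of the deposited FPKM table, whose values are fragments per gene length and library size, with the biotype snoRNA and a name starting with Snord, and with a value above 0 in at least 1 library. This gave 30 of 98 Snord rows, among 54532 genes, and the other 68 Snord rows were at 0 in every library. The 30 members were 64 to 238 bases long, with a median of 82. The labels describe 2 WT and 2 Piezo1KO libraries of flow-sorted CD4+ T cells that had entered tumours of the pigmented mouse melanoma B16. Piezo1 encodes a mechanically gated cation channel, and the series asks what it does in the differentiation of interleukin-9-producing T cells. The labels give no allele, Cre driver, strain, age or tumour day for either genotype, and no treatment other than the tumour itself. Whether 1 animal or several stand behind a group is not stated, so p-values reflect the variation among these 4 libraries alone, and that variation may be technical. Libraries are called WT 1, WT 2, Piezo1KO 1 and Piezo1KO 2 after the sample numbers in their titles.

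Box C/D snoRNAs are short nuclear RNAs that, with the methyltransferase fibrillarin, place methyl groups on the ribose of chosen nucleotides in ribosomal RNA and in the spliceosomal U6 RNA. A guide region next to box D, or to its internal copy, pairs with the target and fixes the nucleotide that is modified. In mammals most lie in introns of other genes, often genes for ribosomal proteins or for ribosome assembly factors. They are released when the spliced intron is opened and trimmed back to the protein-bound core. The mature RNAs carry no poly(A) tail, and the labels name an mRNA library kit, so the values below count the reads that this kind of library placed on each snoRNA and not the cellular amount of the mature RNA.

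The members whose values the results below turn on are shown from the GENCODE M21 transcripts on GRCm38, 5′ to 3′. Capitals mark box C (TGATG) near the 5′ end and box D (CTGA) near the 3′ end, which fold together into the motif that the particle proteins bind. The first 3 guide methylation of large-subunit ribosomal RNA, the next 3 of small-subunit ribosomal RNA, and Snord8 that of U6. These are 7 of the 8 members that fell in Piezo1KO in the test below.
Snord72: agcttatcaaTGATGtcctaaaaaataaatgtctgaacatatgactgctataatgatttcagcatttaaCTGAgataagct
Snord91a: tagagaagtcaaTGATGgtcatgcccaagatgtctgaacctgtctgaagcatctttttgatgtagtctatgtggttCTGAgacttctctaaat
Snord88c: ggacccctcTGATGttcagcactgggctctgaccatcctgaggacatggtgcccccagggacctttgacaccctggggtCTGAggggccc
Snord70: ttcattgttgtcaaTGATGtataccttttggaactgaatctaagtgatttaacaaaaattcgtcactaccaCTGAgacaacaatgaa
Snord110: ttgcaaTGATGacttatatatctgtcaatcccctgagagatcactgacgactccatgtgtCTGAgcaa
Snord11: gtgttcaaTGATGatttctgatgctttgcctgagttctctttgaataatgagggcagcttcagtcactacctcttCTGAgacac
Snord8: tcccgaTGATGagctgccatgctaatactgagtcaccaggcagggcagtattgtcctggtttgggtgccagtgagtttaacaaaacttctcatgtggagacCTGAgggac

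The 2 members with a higher FPKM in both Piezo1KO libraries than in either WT library carried the same pair of boxes.
Snord104: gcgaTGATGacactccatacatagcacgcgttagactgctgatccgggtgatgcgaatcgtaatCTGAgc
Snord7: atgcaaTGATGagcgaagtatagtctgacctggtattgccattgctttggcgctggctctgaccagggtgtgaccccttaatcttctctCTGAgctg

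Snord49a and Snord49b lie in the same host gene and share a stretch of 13 bases. Both are shown because their levels did not run together across the libraries.
Snord49a: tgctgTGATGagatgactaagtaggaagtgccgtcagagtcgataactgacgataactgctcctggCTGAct
Snord49b: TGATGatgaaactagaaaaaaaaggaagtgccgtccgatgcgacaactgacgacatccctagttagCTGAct

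TGATG was searched in the first 25 bases and CTGA in the last 25 bases of each transcript, on its own strand. Both boxes were found in 28 of 30 members (93.3%). Snord71 had no TGATG and Snord53 no CTGA in these windows. Among the 68 Snord rows at 0, 58 had both boxes (85.3%), against none of 42 rows of the box H/ACA class, whose names start with Snora, and 0.349% of 6301 other transcripts in the same length range that are not snoRNAs. The longer form TGATGA, which contains TGATG, was found in 20 members. A closing stem of at least 4 Watson-Crick pairs between the ends, with up to 3 unpaired end bases allowed, was found in 21 of 30 members (70.0%), in 4.76% of Snora rows and in 13.1% of the other transcripts. The longest was 12 pairs in Snord70. Snord49a and Snord49b shared the 13 bases AGGAAGTGCCGTC, which start at base 23 in both, and Snord110 and Snord87 shared 13 bases that run across box C.

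Reads per gene were recovered from the steps of the FPKM values, and assigned totals were 13789266 to 15892797 per library. Mitochondrial genes took 3.86% and 2.99% of the WT reads and 20.1% and 48.3% of the Piezo1KO reads, so shares below are of reads outside mitochondrial genes. Piezo1 was at 27.8 and 27.6 FPKM in the WT libraries and at 18.7 and 7.64 FPKM in the Piezo1KO libraries. The labelled cell type was checked on 15 T cell genes, whose summed level was 3.28 and 2.73 FPKM in WT, with 5 and 2 of them at 0, and 18.1 and 12.4 FPKM in Piezo1KO, with 0 and 2 at 0. In library order the CD3 chain gene Cd3e had 1, 2, 27 and 0 reads. In the same libraries 12 melanocyte genes, none at 0, summed to 6256 to 6862 FPKM, so the defining markers of the labelled cell type were low and those of the tumour line were high in all 4. The summed level of 5 erythroid genes was 389 and 244 FPKM in WT and 5124 and 8472 FPKM in Piezo1KO, and that of 8 myeloid genes was 52.7 and 40.2 against 462 and 222 FPKM. The part of the mitochondrial, erythroid, myeloid and T cell reads in the snoRNA differences was not tested. In bulk RNA, fewer cells of a type and less of an RNA per cell cannot be told apart.

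The box C/D snoRNAs as a whole gave fewer reads in the Piezo1KO libraries. They had 181 reads in WT 1, 266 in WT 2, 38 in Piezo1KO 1 and 49 in Piezo1KO 2, or 534 in all. Per 1000000 reads outside mitochondrial genes this was 12.0 in WT 1 (exact 95% interval 10.3 to 13.9), 17.3 in WT 2 (15.2 to 19.5), 3.10 in Piezo1KO 1 (2.20 to 4.26) and 6.87 in Piezo1KO 2 (5.08 to 9.08). The intervals, which cover counting error only, did not overlap between groups, and those of the 2 WT libraries did not overlap each other either. The WT mean was 14.6 ± 3.69 and the Piezo1KO mean 4.99 ± 2.66 (SD, n = 2 per genotype), a ratio of 2.94. An exact permutation test of 2 libraries against 2 cannot go below p = 0.333, so the summed share is given as a description with no test. With all assigned reads as the total the ratio was 4.69.

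**Figure D1:**
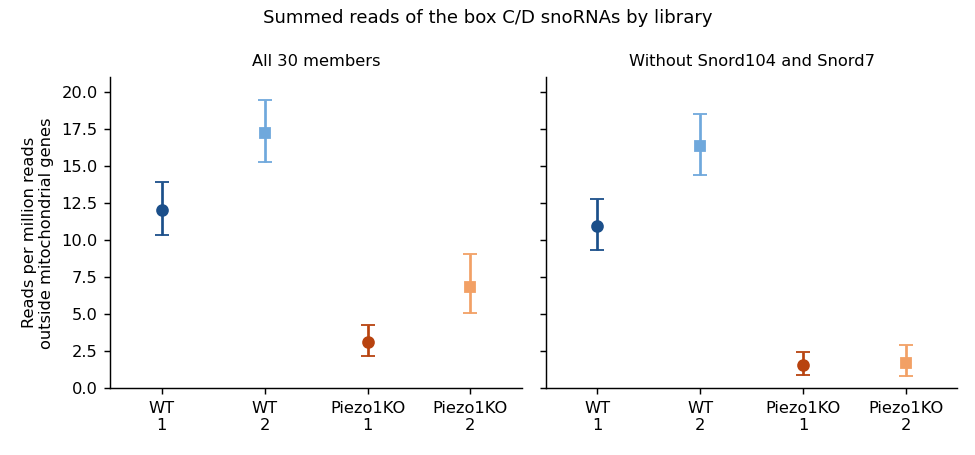
Box C/D snoRNA reads per 1000000 reads outside mitochondrial genes (y axis) in each of the 4 libraries (x axis), for all 30 members on the left and without Snord104 and Snord7 on the right. Points are single libraries and bars are exact 95% intervals of the read share; the WT libraries sit at 12.0 and 17.3 and the Piezo1KO libraries at 3.10 and 6.87 on the left, and at 1.55 and 1.68 for Piezo1KO on the right.

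Few members made up the Piezo1KO reads. Snord104 and Snord7 held 56 of the 87 member reads of the Piezo1KO libraries (64.4%) and 30 of the 447 of the WT libraries (6.71%). Snord104 alone was 61.2% of the member reads of Piezo1KO 2. Without these 2 members the same share was 11.0 and 16.3 for the WT libraries and 1.55 and 1.68 for the Piezo1KO libraries, a ratio of means of 8.45. This setting was chosen after the values were seen.

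Detection was counted by member. WT 1 had reads on 26 members and WT 2 on 28, against 9 in Piezo1KO 1 and 6 in Piezo1KO 2. In both Piezo1KO libraries together 20 of 30 members (66.7%) were at 0, and no member was at 0 in both WT libraries. Over all detected genes 16.7% were at 0 in both Piezo1KO libraries, and over the 760 other detected genes no longer than the longest member the share was 60.0%, with 17.0% of those at 0 in both WT libraries. These 760 held 190 microRNA rows, 152 small nuclear RNA rows, 148 other snoRNA rows and 141 processed pseudogenes. The members' share was thus near that of other short genes at 0 in Piezo1KO and is no result about the members. Among the 17 members with 10 to 86 reads in all, 8 (47.1%) were at 0 in both Piezo1KO libraries, against 10.3% of 4351 other genes with the same range of reads. Those 4351 were matched on reads and not on length, so this comparison cannot set the members apart from other short genes. Depth outside mitochondrial genes was lower in Piezo1KO, at 12244108 and 7132138 reads against 15040502 and 15417190. One read on a snoRNA of median length was worth 0.618 and 0.599 FPKM in WT 1 and WT 2, and 0.827 and 1.63 FPKM in Piezo1KO 1 and Piezo1KO 2.

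Members were tested with limma on log2(FPKM + 1) over the 11085 genes whose mean FPKM reached 1. The threshold was a Benjamini-Hochberg adjusted p below 0.05. On this scale the added 1 FPKM shrinks the measured fold of low genes with reads in both groups. For the 12 tested members at 0 in both Piezo1KO libraries the fold rests on that 1 FPKM, which lies under the floor of 3 reads used below. At this threshold 8 of the 21 members tested fell in Piezo1KO and 0 rose, where the background is 0.370% of all genes called lower and 1.10% called in either direction. Among the other short genes tested 19 of 201 (9.45%) were called lower by the same fit, and among the box H/ACA rows 3 of 9. At an unadjusted p below 0.05 there were 14 members. In the limma fit without the intensity trend 3125 of all 11085 genes were at this level, and also 14 members. Of the 21, 13 had a Piezo1KO mean below 1 FPKM and passed the filter through the WT libraries. The counts of 8 and 14 are thus of members that had to be high in WT. Outside the test, 18 of the 30 members had both Piezo1KO values below both WT values, where the background is 27.9% of all detected genes and 21.4% of the other short genes. In the opposite direction 2 members did not overlap, where the background is 21.7%, and 10 members overlapped. Fits with 1 library left out cannot decide whether the calls rest on both WT libraries. The median log2 difference of the members tested ran from -2.05 to -1.70 with 1 library left out. Such fits have no spread of their own in the group with 1 library, so their calls are not counted. With no filter on low values 0 members passed, where 1 of 23654 genes was called. With each library's trend on gene length removed 0 members passed, where 7 of 11085 genes were called.

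**Figure D2:**
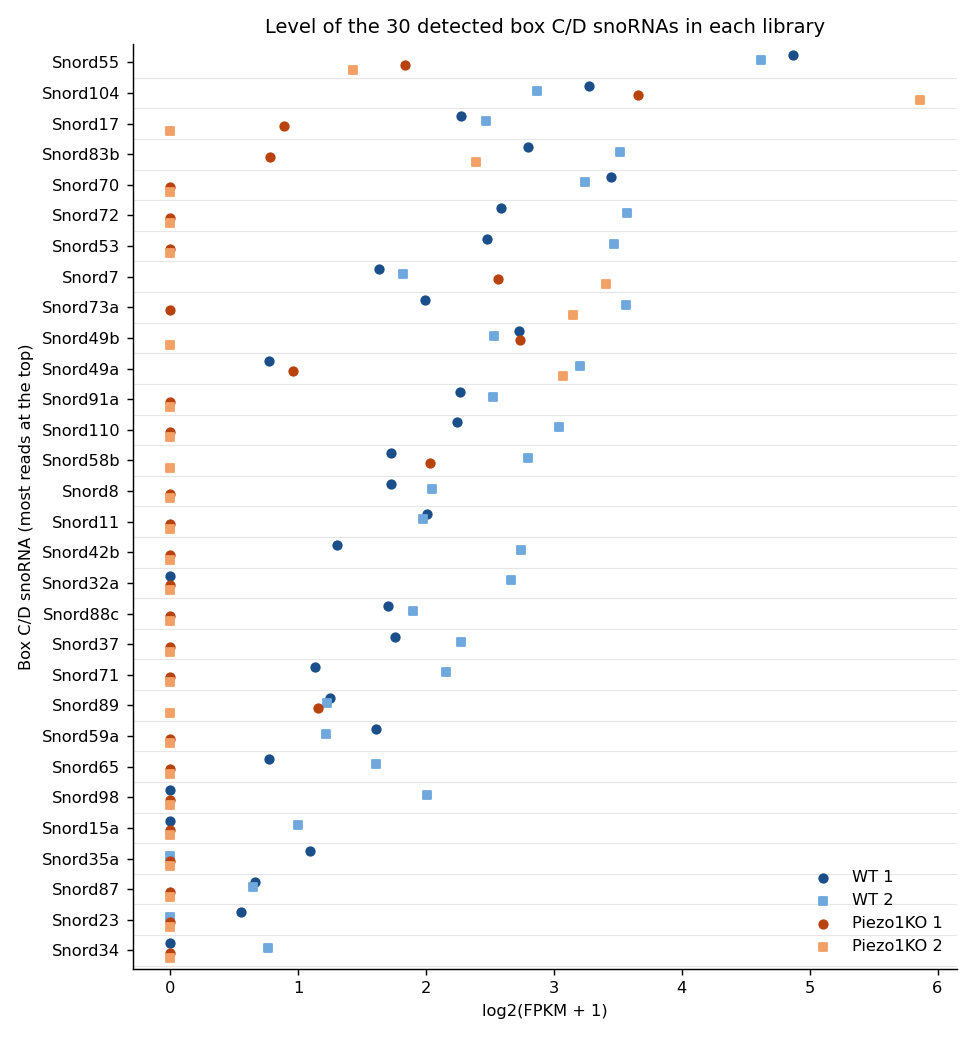
Level of each of the 30 members on the log2(FPKM + 1) scale (x axis), with the members ordered by their reads over all libraries (y axis) and 1 point for each library. Snord55 is the highest member in WT, 20 members have both Piezo1KO points at 0, and Snord104 and Snord7 are the 2 members with both Piezo1KO points above both WT points.

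Large-subunit guides were the largest group, with 17 members, 10 of them at 0 in both Piezo1KO libraries, where the share among the other short genes was 60.0%. Of the 13 tested, 4 fell: Snord55, Snord72, Snord91a and Snord88c. Snord55 had the most reads of any member. It was at 28.2 FPKM in WT 1, 23.6 in WT 2, 2.57 in Piezo1KO 1 and 1.69 in Piezo1KO 2, from 44, 38, 3 and 1 reads. Both WT libraries were far above both Piezo1KO libraries, and Snord55 was the one called member with reads left in Piezo1KO. The means were 25.9 ± 3.26 and 2.13 ± 0.626 FPKM (SD, n = 2 each), the log2 difference was -3.11 with a standard error of 0.20 (limma, adjusted p = 0.0290), and the pooled reads gave an 11.4-fold lower share of the authors' library size in Piezo1KO (exact 95% interval 4.28 to 42.8).

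Snord72, in an intron of Rpl37, was at 5.01 and 10.9 FPKM in the WT libraries, on 8 and 18 reads, and at 0 in both Piezo1KO libraries. A group at 0 was set to a floor of 3 reads over its 2 libraries, with the WT reads taken as exact. At this floor Snord72 was 4.81-fold lower in Piezo1KO (log2 difference -3.08, limma adjusted p = 0.0495). The exact interval of its pooled ratio, which counts the error of the WT reads too, had a lower limit of 3.64-fold. Snord91a lies in an intron of Tsr1, a factor in the maturation of the small ribosomal subunit. It had 7 and 9 reads in WT and none in Piezo1KO. Snord91a was 2.96-fold lower at the floor, with an exact lower limit of 2.14 (limma adjusted p = 0.0340). Snord88c, in an intron of 2410002F23Rik, had 4 and 5 reads in WT and none in Piezo1KO. It was 1.67-fold lower at the floor, with an exact lower limit of 1.10 (limma adjusted p = 0.0461). The WT libraries gave similar values for Snord91a, 3.82 and 4.76 FPKM, and for Snord88c, 2.25 and 2.73 FPKM, and those of Snord72 were further apart.

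Snord53 and Snord37 missed the threshold with the same pattern. Snord53, in an intron of the ribosome assembly gene Wdr43, was at 4.55 and 10.1 FPKM in the WT libraries, on 7 and 16 reads. It had none in Piezo1KO and was 4.26-fold lower at the floor, with an exact lower limit of 3.19 (limma adjusted p = 0.0535). Snord37, in an intron of the translation elongation factor gene Eef2, had 3 and 5 reads in WT and none in Piezo1KO. It was 1.48-fold lower at the floor (limma adjusted p = 0.0537). Its exact interval, with a lower limit of 0.948, included no change. Snord17, the longest member at 238 bases, which lies in an intron of the sorting nexin gene Snx5, was at 3.84, 4.54, 0.855 and 0 FPKM in WT 1, WT 2, Piezo1KO 1 and Piezo1KO 2, from 18, 22, 3 and 0 reads. Its groups did not overlap, and the pooled share was 7.40-fold lower in Piezo1KO (exact interval 2.36 to 37.4), but limma gave an adjusted p of 0.0966.

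Small-subunit guides were 7 members, and all 7 were at 0 in both Piezo1KO libraries, against 66.7% of all members and 60.0% of the other short genes. Those under the filter had at most 5 reads in all, and the difference between these shares was not tested. Of the 4 tested, 3 fell: Snord70, Snord110 and Snord11. Snord70 (chr1:59691934-59692020, plus strand) and Snord11 lie in different introns of Nop58, which encodes a core protein of the box C/D particle itself. Snord70 was at 9.91 and 8.47 FPKM in the WT libraries, on 17 and 15 reads, and at 0 in both Piezo1KO libraries. Its WT values were close. It had the smallest adjusted p of the members (log2 difference -3.35 with a standard error of 0.16, limma adjusted p = 0.0153). It also had the largest fold at the floor, 5.92-fold lower, with an exact lower limit of 4.54.

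Snord11 had 5 reads in each WT library, at 3.02 and 2.93 FPKM, and none in Piezo1KO. It was 1.85-fold lower at the floor, with an exact lower limit of 1.24 (limma adjusted p = 0.0359). Snord110, in an intron of Nop56, another core protein gene, was at 3.73 and 7.23 FPKM in WT from 5 and 10 reads. It was at 0 in both Piezo1KO libraries, 2.78-fold lower at the floor with an exact lower limit of 1.99 (limma adjusted p = 0.0498). Snord110 was the call nearest to the threshold. Snord42b, which overlaps an exon of a retained-intron transcript of Rpl23a, had 2 and 8 reads in WT and none in Piezo1KO, and the difference from its WT values of 1.47 and 5.70 FPKM missed the threshold (limma adjusted p = 0.131).

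Both U6 guides were tested, and they went in opposite directions. Snord8, in an intron of the chromatin remodeller gene Chd8, was at 2.31 and 3.13 FPKM in the WT libraries, on 5 and 7 reads. It was at 0 in both Piezo1KO libraries, 2.22-fold lower at the floor with an exact lower limit of 1.54 (limma adjusted p = 0.0479). An annotated gene lies on the opposite strand there, and no source used here gives the strand setting of the counting. Snord7, in an intron of the noncoding gene AA465934, was at 2.09 and 2.53 FPKM in WT and at 4.89 and 9.63 FPKM in Piezo1KO, from 4, 5, 7 and 7 reads. Its groups did not overlap, and its pooled share was 2.80-fold higher in Piezo1KO (exact interval 1.13 to 7.34). It did not pass the test (log2 difference 1.26, limma adjusted p = 0.130). The difference was 1.69 without Piezo1KO 1 and 0.83 without Piezo1KO 2. The log2 difference was 0.60 rescaled to all assigned reads, 0.70 with voom weights on recovered reads and 0.02 with the length trend removed, and none of these passed.

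Snord104, a large-subunit guide, was the other member above WT in both Piezo1KO libraries. It lies at chr11:106500993-106501062 on the plus strand, where the annotation holds no gene around it on that strand. It was at 8.69 FPKM in WT 1, 6.32 in WT 2, 11.6 in Piezo1KO 1 and 57.2 in Piezo1KO 2, from 12, 9, 12 and 30 reads. Piezo1KO 2 stood far above the other 3 libraries, and Piezo1KO 1 was near WT 1. The pooled share was 3.60-fold higher in Piezo1KO (exact interval 2.09 to 6.40), and the log2 difference of 1.69 had a standard error of 0.75 (limma adjusted p = 0.209). The log2 difference of Snord104 was 2.79 with Piezo1KO 1 left out and 0.58 with Piezo1KO 2 left out. It was at 0.92 rescaled to all assigned reads, 0.94 with voom weights and 0.38 with the length trend removed, and none of these passed.

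Several large-subunit guides had no steady order of libraries. Snord49a was at 0.704 and 8.19 FPKM in WT 1 and WT 2 and at 0.942 and 7.41 FPKM in Piezo1KO 1 and Piezo1KO 2, from 1, 12, 1 and 4 reads. WT 2 and Piezo1KO 2 were high and the others low, so that the spread within each group was far above the difference between them (0.03 on the log2 scale, with a standard error of 1.07). Snord49b, which lies upstream in the same host, was at 5.64, 4.78, 5.65 and 0 FPKM in the same order, from 8, 7, 6 and 0 reads. Snord49b was thus at 0 in the Piezo1KO library in which Snord49a was high. Snord73a, in Rps3a1, was at 2.98, 10.8, 0 and 7.85 FPKM (limma adjusted p = 0.493). Snord58b, in Rpl17, was at 2.31, 5.96, 3.08 and 0 FPKM (limma adjusted p = 0.313). Each of these 4 had reads in 1 or both Piezo1KO libraries, and their groups overlapped.

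The 3 members with no settled target were Snord83b, Snord89 and Snord23. Snord83b, in an intron of Rpl3, was at 5.93 and 10.5 FPKM in WT and at 0.721 and 4.26 FPKM in Piezo1KO, from 11, 20, 1 and 3 reads. Its groups did not overlap, its pooled share was 4.30-fold lower in Piezo1KO (exact interval 1.52 to 16.8), and the adjusted p from limma was 0.176. Snord89 had 3, 3, 2 and 0 reads, and Snord23 a single read, in WT 1.

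The remaining members were low everywhere and fall outside the rule for named genes; they are given so that each of the 30 is accounted for. Snord32a, which guides both subunits, had 9 reads in WT 2 and 0 elsewhere, and Snord71 had 2 and 6 reads in WT and 0 in Piezo1KO; both were tested and missed the threshold. Snord59a, Snord65, Snord98, Snord15a, Snord35a, Snord87 and Snord34 had 1 to 5 reads over all libraries, all of them in WT, and with Snord89 and Snord23 they were the 9 members under the filter. Of the 20 members at 0 in both Piezo1KO libraries, 12 had WT reads above the floor, and 8 had too few WT reads for any fold. The 12 were 1.48-fold to 5.92-fold lower at the floor, with the WT reads taken as exact. Their exact lower limits ran from 0.948 to 4.54, and the intervals of Snord37 and Snord71 included no change.

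The median log2 difference over the 21 members tested was -1.89, against -0.0059 over all genes tested; as said above, 13 of the 21 passed the filter through WT alone, so this median is over members that were high in WT. The 9 box H/ACA rows tested had a median of -0.59 and the 201 other short genes one of -0.19. With the members at 0 in Piezo1KO set to the floor, the median of the log2 ratio of pooled FPKM was -1.03. The spread within WT was wider for the members than for other genes, with a median SD of 0.37 against 0.075 on the log2(FPKM + 1) scale. Within Piezo1KO the median SD of the members was 0, since 12 of the 21 tested had no reads in either library. For the 7 called members among these, the limma p-values hold no measured spread between Piezo1KO libraries. In WT, 24 members had reads in both libraries, 2 in WT 1 alone and 4 in WT 2 alone, and 20 of 30 were higher in WT 2. The 5 members with the most reads held 48.5% of all member reads.

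Most members lie inside another gene, so 28 members were set beside their hosts on the same strand, 23 genes in all; Snord104 had none and Snord55 was not compared. Of the 22 hosts tested 0 were called by limma, with 7 at an unadjusted p below 0.05 and a smallest adjusted p of 0.130. Of all 11085 genes 3125 were at that unadjusted level in the limma fit without the intensity trend. By the sign of the log2 difference 14 hosts were higher and 8 lower. Without Piezo1KO 1 these counts were 15 and 7, and without Piezo1KO 2 they were 13 and 9. The 7 hosts that encode ribosomal proteins had both Piezo1KO values above both WT values, where the background is 21.7% of all detected genes, with log2 differences of 0.71 to 2.29. Their 9 members included 6 at 0 in both Piezo1KO libraries. With values rescaled to all assigned reads or with voom weights 6 of these 7 hosts were still above WT, and Rpl3 was at -0.10. The other 16 hosts had a median log2 difference of -0.02, with 6 higher and 6 lower without overlap, against 21.7% and 27.9% of all detected genes, and 14 of their 19 members were at 0 in both Piezo1KO libraries.

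The large-subunit ribosomal protein gene Rpl37 and its intronic Snord72 had opposite signs. Rpl37 was at 92.1 and 90.6 FPKM in WT and at 195 and 1037 FPKM in Piezo1KO (limma adjusted p = 0.163), with a log2 difference of 2.29. For each 1000 reads of Rpl37 there were 2.62 and 5.80 reads of Snord72 in the WT libraries and 0 in both Piezo1KO libraries. This ratio does not depend on the library size.

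Not all hosts of called members were level or higher. Tsr1, Chd8 and 2410002F23Rik, which hold Snord91a, Snord8 and Snord88c, were lower in Piezo1KO without overlap. Their log2 differences were -0.75, -0.55 and -0.29, against -2.40, -1.89 and -1.80 for these members. The hosts with level values gave the plainest comparison. Nop58 was at 11.0, 11.9, 11.1 and 11.4 FPKM in WT 1, WT 2, Piezo1KO 1 and Piezo1KO 2, a log2 difference of -0.02 with a standard error of 0.13, while Snord70 and Snord11 in its introns had 7.28 and 5.78, and 2.14 and 1.93, reads per 1000 of Nop58 in WT and none in Piezo1KO. Wdr43 was at 25.9, 26.2, 24.5 and 24.5 FPKM, with 3.98 and 8.70 reads of Snord53 per 1000 in WT and 0 in both Piezo1KO libraries. Snx5 was at 33.2, 34.6, 34.6 and 39.0 FPKM, with 6.58, 7.47, 1.41 and 0 reads of Snord17 per 1000. Nop56 overlapped between groups at 26.4, 35.4, 25.1 and 33.8 FPKM. The reads per 1000 host reads were below both WT values in both Piezo1KO libraries for 19 of the 28 members compared. This order is automatic for a member at 0 in both Piezo1KO libraries and with reads in both WT libraries, whatever its host does. The same ratio was not computed for other intronic genes, so the count of 19 has no background of its own. The log2 difference of the member was below that of its host for 27 of 28, the exception being Snord7. That count has no background either. A negative difference was fixed in advance for the 20 members at 0 in both Piezo1KO libraries, since they were detected through WT alone.

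**Figure D3:**
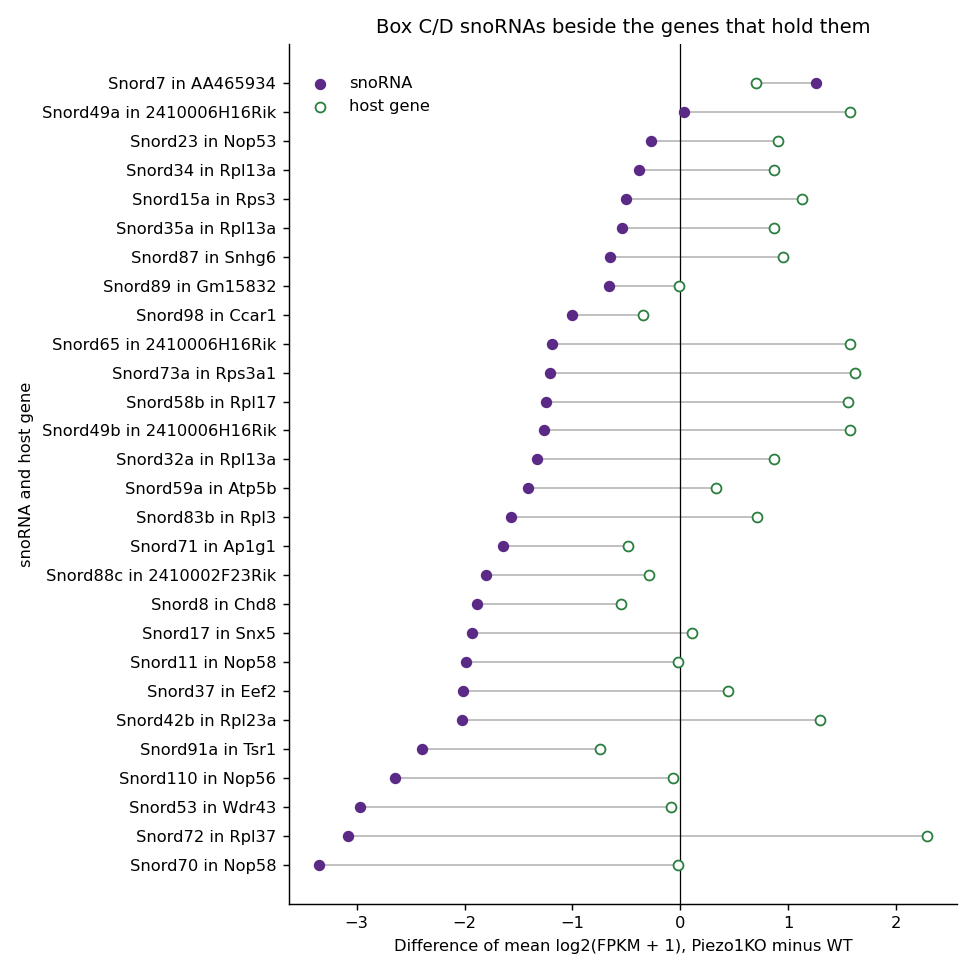
Difference of mean log2(FPKM + 1), Piezo1KO minus WT (x axis), for each of 28 hosted members (filled points) and for the gene that holds it (open points), 1 pair per row (y axis). The open point lies to the right of the filled one in 27 of 28 rows, and Snord7 in AA465934 is the exception.

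The proteins of the particle were measured beside their RNAs. The 5 core genes, Fbl for fibrillarin, Nop56, Nop58, Snu13 for the protein that reads the box C/D fold, and Rrp9 for a protein specific to the U3 particle, had 0 calls by limma, with 2 at an unadjusted p below 0.05. Their log2 differences ran from -0.07 to 0.50, with a median of 0.33. Fbl was at 24.6 and 26.7 FPKM in WT and at 32.4 and 35.9 FPKM in Piezo1KO, without overlap (log2 difference 0.40, limma adjusted p = 0.165). Of 18 genes for assembly, intron opening and trimming, 17 were tested and 0 were called, with 2 at an unadjusted p below 0.05 and a range of -0.60 to 0.81. As given above, 3125 of 11085 genes were at that unadjusted level without the intensity trend. The 4 with the smallest p were the assembly factors Nufip1 (log2 difference 0.69, limma adjusted p = 0.127) and Pih1d1 (0.81, 0.138), the lariat debranching enzyme gene Dbr1 (-0.60, 0.184) and the poly(A) polymerase gene Papd5 (-0.30, 0.188).

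Detection differed by the position of the row in the annotation. All 98 Snord rows had the same coordinates and sequence length in GENCODE M21 as in the deposited table. Of the 54 rows that lay in introns only, 28 were above 0 (51.9%), and without the 17 rows of the imprinted Snord116 cluster 28 of 37 were (75.7%). Of the 41 rows that overlapped an annotated exon of another gene on the same strand, Snord42b alone was above 0 (2.44%), and 32 of the 41 overlapped a retained-intron transcript. Of 3 rows with no gene on their strand, 1 was above 0, Snord104. No source used here says how the counting treated a read that fell on more than 1 gene, so a value of 0 in a row that overlaps an exon cannot be read as absence of the RNA. This holds for the 4 rows of Snord14, which acts in the cleavage of the ribosomal RNA precursor, all of which overlap an exon and were at 0. The 17 Snord116 rows, which overlap no exon, were at 0 as well. Snord118 and Snord13, also processing RNAs, each had 1 row at 0, and Snord115 and Snord3a were not analysed here.

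**Figure D4:**
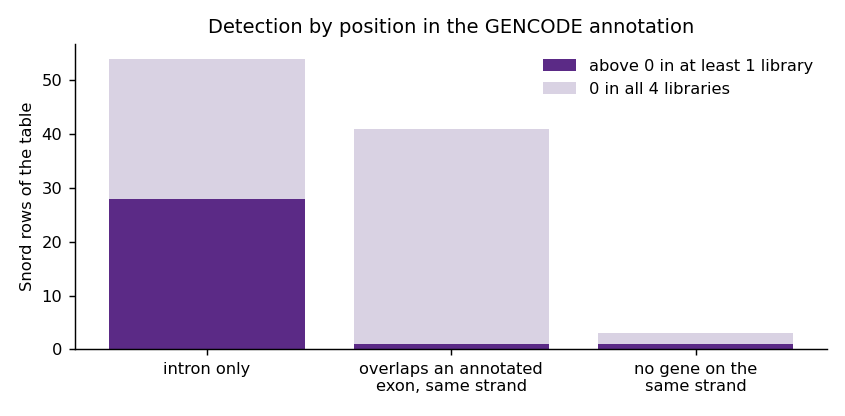
Number of Snord rows (y axis) by their position in the GENCODE annotation (x axis), split into rows above 0 in at least 1 library (dark) and rows at 0 in all 4 (light). Rows above 0 are 28 of 54 in introns only, 1 of 41 that overlap an exon and 1 of 3 with no gene on the same strand.

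Other short nuclear RNAs were set beside the members on the same scale, as pooled reads per reads outside mitochondrial genes, WT over Piezo1KO. The ratio was 3.27 for the members (exact interval 2.59 to 4.16) and 8.56 without Snord104 and Snord7 (5.94 to 12.8). For the 15 detected Snora rows, the box H/ACA class that guides pseudouridylation, it was 3.80 (2.71 to 5.46), and 8 of the 15 (53.3%) were at 0 in both Piezo1KO libraries against 66.7% of the members. The intervals of the 2 classes overlapped, and the difference between them was not tested. For the 760 other detected short genes it was 0.779 (0.769 to 0.790), a sum that 3 kinds of row dominated: mitochondrial genes at 0.194, processed pseudogenes at 0.261 and a single microRNA row with most of the reads. Without these, the 598 other short genes left gave 2.50 (2.33 to 2.68), with 67.6% at 0 in both Piezo1KO libraries, so that lower shares in Piezo1KO were not particular to the box C/D class. That grouping was chosen after the values were seen. These pooled ratios cover counting error only and carry no spread between libraries.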

How the data were processed

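The authors deposited 1 FPKM value per gene and library, with gene lengths. Per the submitters' processing notes, the tools were fastp 0.19.7 and featureCounts 1.5.0-p3, with the build mm10 (GRCm38). No source used here gives the aligner, the annotation release, the strand setting or the FPKM formula. FPKM times length fell on multiples of a single step in each library, within 0.05 reads for 100% of the nonzero values, and dividing by it gave the reads per gene. The step implies a library size of 1.26, 1.28, 0.962 and 0.544 times the assigned reads (WT 1, WT 2, Piezo1KO 1, Piezo1KO 2), so FPKM and shares of assigned reads are different scales. The file columns number the WT libraries differently from the titles, and the titles' numbers are used.

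The test was limma 3.58.1 in R 4.3.3 on log2(FPKM + 1) with an intensity trend and no block, two-sided, on 2 residual and 2.59 prior degrees of freedom, with Benjamini-Hochberg adjustment over all 11085 genes tested. It was tested on simulated data. Shares, exact intervals (scipy 1.17.1), sequences and positions (GENCODE M21) were computed in Python 3.11.15. A fold against a group at 0 uses a floor of 3 reads over the group, per the authors' implied library size. It takes the reads of the other group as exact, so it is not a lower limit of the fold. The exact lower limits given beside it come from the exact interval of the pooled ratio.

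Named were members that pass the test, the 15 with the most reads, those at 0 in one group with at least 10 reads in the other, the Snord3a, Snord118, Snord14, Snord13, Snord115 and Snord116 rows, the hosts of those members, the particle proteins, and up to 4 assembly genes. Targets are those known for the human counterparts. The members and lists were chosen with earlier results of these data known. Alternatives changed the pseudocount, the filter, the scaling, the trend, the block and the libraries used. The position, sequence and host of Snord55 are not reported here.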

Additional observations from a re-analysis of the deposited data

How the results depend on the processing

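The count of members called was 8, and it depended on the filter, the scaling and the libraries. It was 0 of 30 with no filter (17 at an unadjusted p below 0.05 by limma), 1 with a mean FPKM of at least 5 (Snord55, of 4 tested), 19 with FPKM rescaled to all assigned reads, where the median of all genes was -0.67, and 0 with each library's trend on gene length removed (15 at an unadjusted p below 0.05). With 1 library left out it ran from 0 to 16: 0 without either WT library (14 and 13 at an unadjusted p below 0.05 without WT 1 and WT 2), 16 without Piezo1KO 1 (14 lower, and Snord104 and Snord7 higher) and 13 without Piezo1KO 2 (12 lower, and Snord7 higher). The lone library left in a group is then assumed to vary like the other group. It was 6 at a pseudocount of 0.1 (5 of the 8 kept), 10 with FPKM rescaled to reads outside mitochondrial genes, 8 without the intensity trend (7 kept), and 8 by limma with voom weights on recovered reads (6 kept), where the median of all genes was -0.82. The median log2 difference of -1.89 was -4.43 at a pseudocount of 0.1, -1.37 with no filter, -1.39 with a mean FPKM of at least 5, -3.10 with voom and -3.06 with the length trend removed, and -2.05 to -1.70 with 1 library left out. The cause of these shifts was not tested. Voom, the length trend and the sums without Snord104 and Snord7 were added after the data were seen.

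Same-numbered libraries did not deviate together (correlation -0.03 over 11085 genes), and the labels do not say that a number marks a shared animal. With the replicate number as a block 11 members were called, the 8 among them, where 264 of 11085 genes were called. Signs turned for 3 members, none of them among the 8 called. With 1 library left out Snord73a ran from -2.78 to 0.37 (without Piezo1KO 1) and Snord49b from -2.63 to 0.10 (without Piezo1KO 2). Snord49a, at 0.03, was at -0.59 rescaled to all assigned reads, -0.14 rescaled to reads outside mitochondrial genes, -1.19 without WT 1, -1.03 without Piezo1KO 2, 1.25 without WT 2, -0.65 with voom and -1.27 with the length trend removed. The summed share stayed lower in Piezo1KO in each alternative run. The 2 planned count-model tests were not run, since the deposited values are FPKM. Depth limits every value: 13 of the 30 members had under 10 reads in all.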

Other observations

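Other classes of short RNA rows were measured in the same libraries. The 134 detected snoRNA rows with neither a Snord nor a Snora name had 1077 reads in WT and 107 in Piezo1KO, a pooled share outside mitochondrial genes 6.40-fold lower in Piezo1KO (exact 95% interval 5.25 to 7.89, counting error only), and 97 of them (72.4%) were at 0 in both Piezo1KO libraries. Of the 37 of these tested by limma 11 were called lower and 0 higher. The 12 detected rows of small Cajal body RNAs, which guide modification of spliceosomal RNAs, had 38 and 9 reads, a ratio of 2.69 (1.28 to 6.32). The 152 detected small nuclear RNA rows gave 2.11 (1.77 to 2.53), with 2 of 28 tested called lower by limma. The 190 detected microRNA rows gave 1.60 (1.57 to 1.63), and 2.03 (1.84 to 2.25) without the row with the most reads, with 3 of 45 called lower by limma.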
